A study of Arabidopsis thaliana with 18 samples.

Results

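Root transcripts of chl1-12, a line that takes its name from the CHL1 gene, were compared with those of the wild type col, with 3 arrays for each. These 6 arrays were found by the start of each sample's title and are 6 of the 18 arrays of the series. All lines other than col are named for a change in CHL1, also called NRT1.1 and NPF6.3. It is a nitrate transporter of the root plasma membrane that also senses nitrate, and its activity is altered by phosphorylation at a threonine. Nitrate taken up by roots induces transporters, reductases and the repressors that later switch nitrogen starvation genes off, and NRT1.1 is known to act in that response and in lateral root growth.

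All plants, wild type included, had 10 mM NH4NO3 in vitro and were 8 days old, so ammonium and nitrate were both supplied to every group, and RNA was taken from roots. The other groups used here, with 3 arrays each, were chl1-5, chl1-9, T101A and T101D. In T101A and T101D a threonine of the protein is replaced by alanine or by aspartate. The labels state neither the lesion of chl1-12, nor the accession in which it was obtained, nor the background that carries the T101 forms, nor how many plants were pooled for an array. They also do not say that the replicates were separate cultures, and the spread behind each p-value is that of these arrays alone, which may be technical. Values are probe set intensities on a linear scale, each array scaled by the authors to the same trimmed mean of 500, so that a change in total messenger RNA per root cannot be seen. Differences are on the log2(intensity + 16) scale, and a fold is 2 raised to that difference, which understates the change of dim probe sets. Means are given ± SD over 3 arrays and differences ± SE of the limma fit.

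The median intensity of an array lay between 189 and 190 in chl1-12 and between 194 and 197 in col. Arrays of chl1-12 correlated with each other at r = 0.987 to 0.988 over all probe sets, and with col arrays at 0.981 to 0.985. No array of either group stood apart by these measures. The platform annotation used here names no probe set for NRT1.1, so the level of the altered gene could not be identified by name. Probe sets without a gene name were tested with the rest, and which genes they measure was not determined. EXPA7, an expansin of root hair cells and a marker of the labelled tissue, was at 746 ± 113 in col and at 845 ± 18 in chl1-12.

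Of 22746 probe sets tested, 341 (1.5%) passed an adjusted p of 0.05 between chl1-12 and col, 214 higher (0.941%) and 127 lower (0.558%) in chl1-12. The 214 higher probe sets had a median difference of 0.77, or 1.70-fold, and a median col intensity of 319. The 127 lower ones had a median of -1.05, or 2.07-fold, from a median col intensity of 384. The difference was at least 2-fold for 61 rises and 67 falls, and 2515 probe sets had an unadjusted p under 0.05. For all 341 the 3 chl1-12 arrays lay on 1 side of the 3 col arrays, as did 17.3% of all probe sets. The annotation gave 1 gene for 178 of them, 116 higher and 62 lower, none for 156 and several for 7. The count depended on single arrays, and it was 181 without chl1-12 replicate 1, 189 without chl1-12 replicate 2, 209 without col replicate 2 and 222 without col replicate 3. With only these 6 arrays in the fit, 95 probe sets passed, 43 higher and 52 lower, so the balance of rises and falls turned. Gene lists below were matched by symbol, synonym or a fixed set of locus codes, so family members known only by a locus code can be missing from them.

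**Figure D1:**
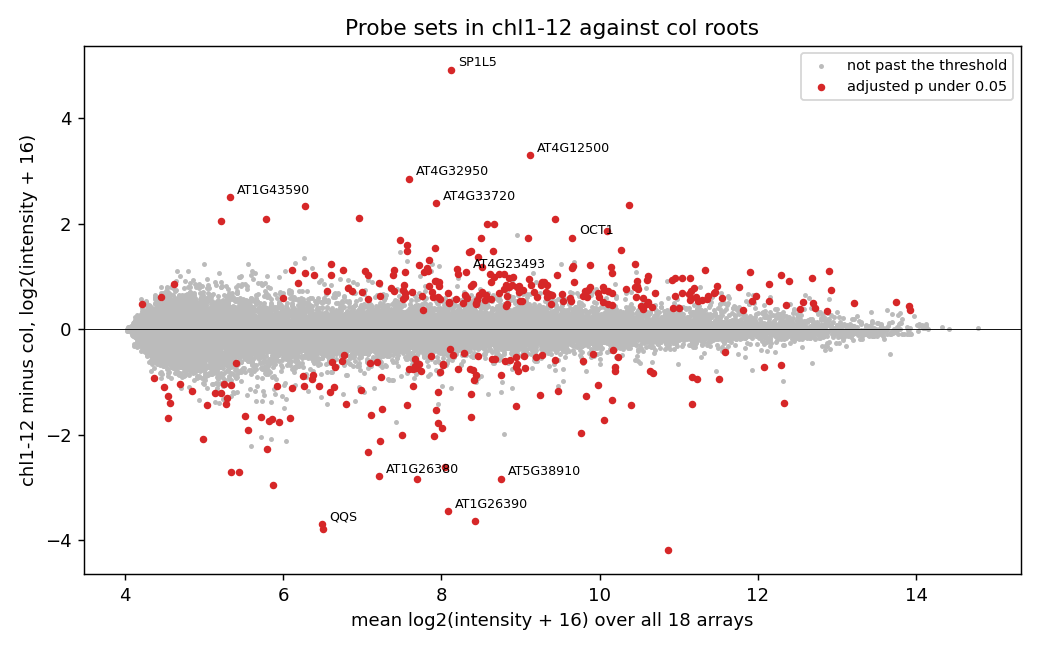
Difference between chl1-12 and col, log2(intensity + 16), against the mean level over all 18 arrays, 1 point per probe set. Red points are the 341 probe sets with an adjusted p under 0.05, and SP1L5 at 4.92 is the highest point.

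SP1L5 had the largest difference from col in either direction. It belongs to the SPIRAL1-like family of small microtubule-associated proteins, which act in directional cell expansion. The chl1-12 arrays read 6400, 5678 and 6585, and the col arrays 260, 192 and 137. Every chl1-12 array was far above every col array. The difference was 4.92 ± 0.35, or 30.2-fold (adjusted p = 4.3e-06). Mean levels in the other lines were 170 ± 51 in T101D, 121.9 ± 80 in chl1-9, 116 ± 11 in chl1-5 and 112 ± 48 in T101A. Tested directly, chl1-12 was above these, in the same order, by 5.09, 5.65, 5.56 and 5.68, with adjusted p between 4.98e-07 and 2.76e-06.

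The other measured SPIRAL1-like genes did not pass against col. SPR1 was at 3242 ± 94 in chl1-12 and 3185 in col, a difference of 0.03. SP1L3 and SP1L4 differed by -0.18 and -0.11. SP1L2 was at 100 in chl1-12 against 162 in col (-0.61 ± 0.24, adjusted p = 0.32). SP1L5 was thus the 1 called of 5 measured family members, compared with 1.5% of all probe sets. None of the 40 measured genes of a list of tubulins and microtubule-associated proteins passed.

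AT4G23493, the gene next to SP1L5 on chromosome 4, was also higher. Its chl1-12 arrays read 626, 530 and 696 against 305, 286 and 250 in col. All chl1-12 arrays lay above all col arrays, by 1.09 ± 0.15 or 2.13-fold (adjusted p = 0.0017). The 4 other lines had means from 238 to 287, and chl1-12 exceeded each of them by 1.06 to 1.31 with adjusted p between 0.0013 and 0.0086. SP1L5 and AT4G23493 form 1 of 8 pairs of adjacent measured genes in which both were called against col, out of 5873 pairs. In each of the 8 pairs both genes moved the same way.

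Genes further along the chromosome did not share this pattern. Within 20 gene steps on either side of SP1L5, 18 genes were measured. The 16 besides SP1L5 and AT4G23493 differed from col by -0.38 to 0.57 and from chl1-5 by -0.45 to 0.46. Only AT4G23510, 2 steps away, passed against col (0.57 ± 0.12, 143 against 92, adjusted p = 0.023), and its difference from chl1-5 was 0.11 (adjusted p = 1). On chromosome 4 as a whole 2.07% of measured genes were called, compared with 0.993% to 1.55% on the other nuclear chromosomes.

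**Figure D2:**
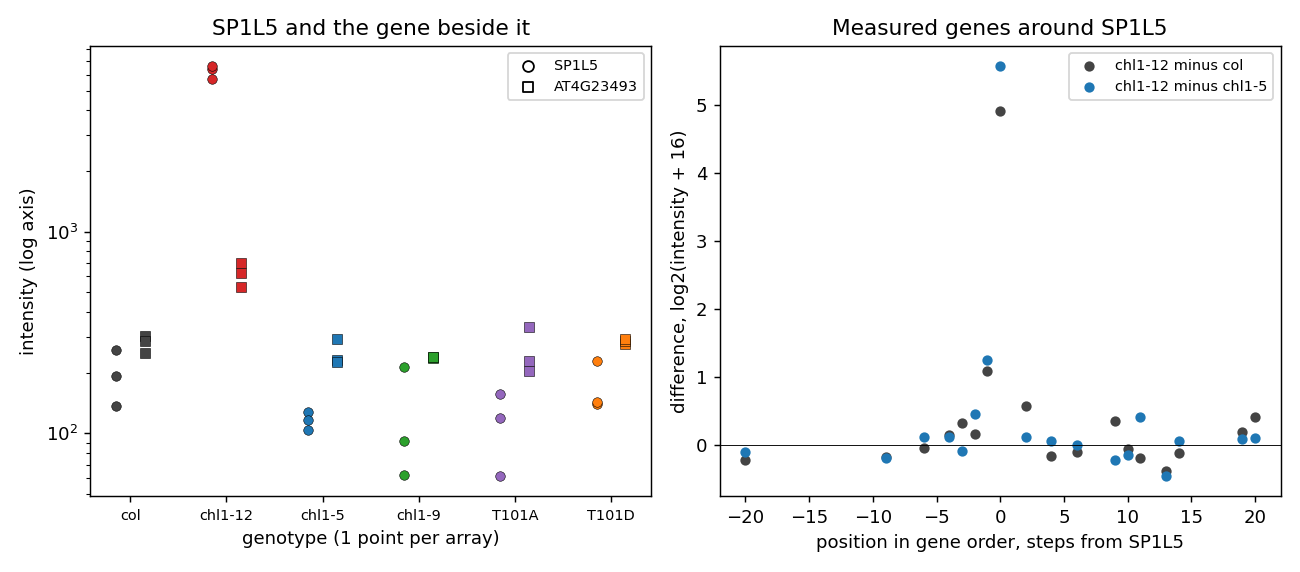
Left, intensity of SP1L5 (circles) and AT4G23493 (squares) on every array, on a log axis, by genotype. Right, difference of chl1-12 from col and from chl1-5 for the 18 measured genes within 20 gene steps of SP1L5; at 0 and -1 steps both differences exceed 1, and at all others they lie between -0.45 and 0.57.

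Only 4 probe sets (0.0176%) differed between chl1-12 and each of the other 5 genotypes in 1 direction, all higher in chl1-12. Besides SP1L5 and AT4G23493 these were AT1G43590 and AT3G43680, both listed as pseudogenes by RefSeq. AT1G43590 read 96.7, 65.8 and 105 in chl1-12 and at most 3.36 in col. Its means were 3.58 in T101A, 23.3 in chl1-5, 34.1 in chl1-9 and 42.0 in T101D, so T101A resembled col and the other lines lay between col and chl1-12. The difference from col was 2.50 ± 0.15 (5.67-fold, adjusted p = 7.25e-07). AT3G43680 was dim throughout, at 18 ± 5.2 in chl1-12 and 6.04 ± 1.70 in col (0.62 ± 0.13, adjusted p = 0.023). Without chl1-12 replicate 1 or T101D replicate 1 only SP1L5 and AT4G23493 remained of the 4, and without chl1-12 replicate 3 only SP1L5 did, joined by an unnamed probe set. A filter on dim probe sets also removed both pseudogenes.

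The largest fall in chl1-12 was that of 264348_at, a probe set that the annotation used here does not name. It read 368, 294 and 377 in chl1-12 and 7180, 6283 and 6322 in col. No array of chl1-12 came near those of col, and the difference was -4.19 ± 0.24, an 18.3-fold fall (adjusted p = 7.25e-07). In chl1-5 the same probe set was at 11.4 ± 15.2, below chl1-12 by 3.85 (adjusted p = 8.2e-07). It was at 5394 ± 250 in T101A, 10858 ± 879 in chl1-9 and 11742 ± 204 in T101D. A further unnamed probe set, 264371_at, was at 5040 ± 155 in chl1-12 and 4703 in col, but at 56.2 in chl1-5, 16.4 in T101A and 24.5 in T101D. Thus chl1-12 lay far from col for 264348_at and near col for 264371_at.

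AT4G12500, a lipid-transfer-like protein of the group that holds EARLI1 and AZI1, read 1364, 1157 and 731 in chl1-12 and 108, 99.1 and 72.7 in col. The lowest chl1-12 array was far above the highest col array, and the difference was 3.30 ± 0.21, or 9.85-fold (adjusted p = 1.18e-06). Its neighbour in the same group, AT4G12490, was at 663 ± 148 against 156 ± 43 (1.99 ± 0.37, adjusted p = 0.012, and 0.064 without chl1-12 replicate 2). AT4G33720, a PR-1-like secreted protein, was at 379 ± 191 against 58.6 ± 29.4 (2.38 ± 0.50, adjusted p = 0.025). This call was lost without chl1-12 replicate 1 or 2 and without col replicate 2 or 3. AT4G33730, which lies beside it, rose by 0.75. AT5G47000, a class III peroxidase, was at 483 ± 77 against 121.5 ± 76.9, a rise of 1.99 ± 0.31 (adjusted p = 0.0033).

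AT4G32950, a PP2C protein phosphatase, read 417, 324 and 296 in chl1-12 and 37.0, 36.2 and 28.2 in col. The groups were widely separated, with a difference of 2.85 ± 0.22 or 7.22-fold (adjusted p = 5.82e-06). GAMMA-VPE, a vacuolar processing protease whose gene lies beside it, was at 4897 ± 203 against 3392 ± 353 (0.53 ± 0.10, adjusted p = 0.012). OCT1, an organic cation and carnitine transporter, read 923, 1039 and 1075 against 158, 364 and 429, a rise of 1.73 ± 0.29. CHX16, of the cation and proton exchanger family, rose by 1.05 ± 0.16 from 235 to 504. SWEET14, a sugar exporter, rose by 0.92 ± 0.11 from 126 ± 1 to 254 ± 29, as 1 of 20 sugar transporters in the list, whose median was -0.19. RALFL27, a peptide of the RALF family that alters cell wall and pH status, rose by 0.93 from 1108 to 2133. It was the 1 gene called among 11 measured RALF genes, and 0.941% of all probe sets rose.

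Of 12 measured FLZ zinc finger genes, whose proteins bind the energy-sensing kinase SnRK1, 3 rose and none fell. The median of the 12 was 0.26, compared with -0.03 over all probe sets, of which 0.941% rose. AT3G22550 read 286, 245 and 235 in chl1-12 against 77.6, 87.9 and 56.9 in col. All 3 chl1-12 arrays were more than 2-fold above the col arrays (1.60 ± 0.19, adjusted p = 0.00044). AT1G22160 rose by 1.48 ± 0.20 from 146 to 448, and AT1G78020, whose call was lost without chl1-12 replicate 1, by 0.84 ± 0.15 from 354 to 644. CC-type glutaredoxins are small redox proteins that partner TGA factors, and several are known to respond to nitrate. Of 17 measured, 3 rose and none fell, with a median of 0.33. AT1G06830 was at 241 against 88.6, AT5G11930 at 235 against 107 and AT4G33040 at 591 against 290. The first 2 had adjusted p of 0.045 and 0.047 and each lost its call when any chl1-12 array was left out. No FLZ or glutaredoxin gene of these lists was called between chl1-12 and any of the other lines. From chl1-5, chl1-9, T101A and T101D, the median difference of chl1-12 was -0.01, 0.14, -0.13 and 0.12 for FLZ genes. For glutaredoxins it was -0.10, -0.10, 0.09 and 0.21 in the same order. The FLZ, glutaredoxin, purine and thalianol lists were drawn up after these values had been seen.

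Of 3 measured enzymes that release nitrogen from purines, 2 rose, compared with 0.941% of all probe sets. ALN, allantoinase, read 846, 893 and 904 in chl1-12 and 522, 647 and 581 in col. The groups did not overlap, and the difference was 0.59 ± 0.10 (adjusted p = 0.0076). AAH, allantoate amidohydrolase, which takes the next step, was at 1597 ± 128 against 1044 ± 180 (0.62 ± 0.12, adjusted p = 0.021), and its call was lost without chl1-12 replicate 2 or 3 and without col replicate 1. UGLYAH, the enzyme that completes the pathway, was at 88.4 against 85.5, a difference of 0.05 ± 0.21. In the thalianol triterpene gene cluster both measured genes of a list drawn up after the values were seen, each encoding a BAHD acyltransferase, rose. An earlier list of thalianol and marneral clusters, which held neither gene, had 22 measured genes. None of the 22 passed, and their median was -0.05. AT5G47950 went from 582 to 968 (0.73 ± 0.13) and AT5G47980 from 607 to 1378 (1.19 ± 0.25). The AT5G47980 call was lost in 5 of 16 alternatives.

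Among other enzymes of specialised metabolism, changes were mixed. BCAT4, the aminotransferase that starts methionine chain elongation for glucosinolates, was at 4894 ± 475 against 2718 ± 386 (0.85 ± 0.17), a call lost in 5 of 16 alternatives. FMO, a flavin-containing monooxygenase, was at 1284 ± 80 against 768 ± 14. These were the genes called among 9 measured of glucosinolate synthesis and breakdown, whose median was 0.05. For this and the next lists, the shares of all probe sets were 0.941% higher and 0.558% lower. Of 51 UDP-glycosyltransferases measured in the list, UGT72E1, which glucosylates lignin precursors, rose by 0.91 ± 0.16. UGT84A1, which esterifies hydroxycinnamates, fell by 1.19 ± 0.24, and UGT76E2 fell by 0.50. These calls were lost in 2 of 16, 4 of 16 and 6 of 15 alternatives, each without at least 1 of the chl1-12 arrays among them. Of 14 glutathione transferases GSTU20 rose by 0.92 and ATGSTF13 fell by 0.76 (adjusted p = 0.031). The ATGSTF13 call was lost when any 1 array of either group was left out, with adjusted p from 0.065 to 0.11, and the GSTU20 call without col replicate 3. BAT1, an acyltransferase that acts on brassinosteroids, rose from 1170 ± 48 to 2309 ± 187 (0.97 ± 0.09, adjusted p = 5.35e-05). AT1G14130, the auxin oxidase DAO1, rose from 429 to 891 (1.03 ± 0.10, adjusted p = 5.35e-05). None of 28 cytochromes P450 and none of 17 other auxin genes measured in the lists passed.

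**Figure D3:**
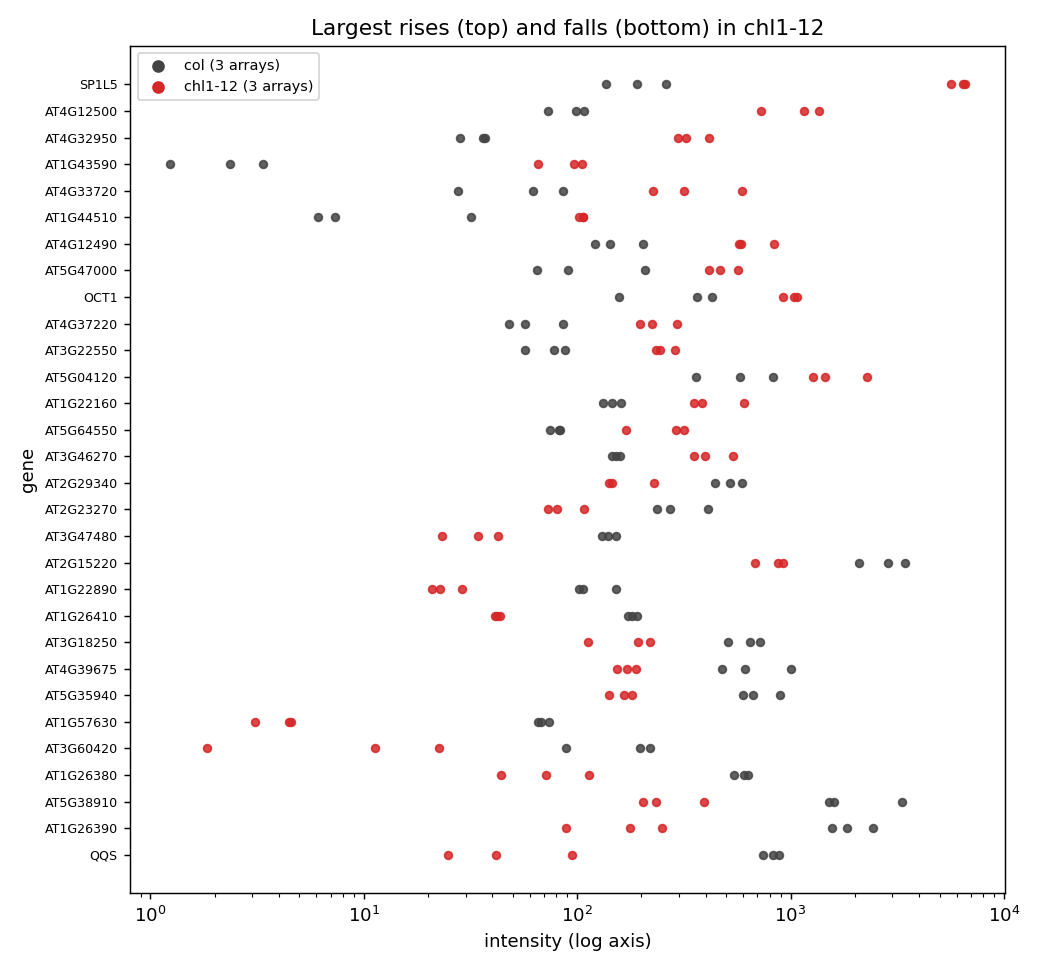
Intensity on a log axis of the 15 strongest rises and 15 strongest falls among named genes, 1 point per array, col in grey and chl1-12 in red. Genes were picked so that in each row the 3 arrays of a genotype lie on 1 side of the 3 of the other.

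The named gene that fell most was QQS, an orphan gene of Arabidopsis whose product lowers leaf starch. It read 41.9, 24.7 and 94.3 in chl1-12 and 883, 739 and 832 in col. The highest chl1-12 array was well below the lowest col array, and the difference was -3.70 ± 0.27, or 13.0-fold (adjusted p = 4.27e-06). Against the same col arrays, QQS was also lower in each other line, by -4.10 in T101A, -4.09 in T101D, -3.89 in chl1-9 and -3.51 in chl1-5. No direct comparison of chl1-12 with another line called it.

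Berberine-bridge-like oxidases are secreted flavoenzymes, several of them induced by pathogens. Of 22 measured, 4 fell and none rose, and all 4 lie within a run of genes on chromosome 1. The median over the 22 was -0.14, and of all probe sets 0.558% fell. AT1G26380, also known as FOX1, acts in the synthesis of an indole defence compound. It read 114, 43.9 and 71.8 in chl1-12 and 545, 630 and 607 in col, a wide gap with a difference of -2.79 ± 0.40 (adjusted p = 0.0020). AT1G26390 was at 172 ± 81 against 1943 ± 444 (-3.45 ± 0.51). AT1G26410 was at 42.5 ± 1.1 against 182 ± 10 (-1.76 ± 0.33). AT1G26420 was at 74.4 against 219, and its adjusted p of 0.042 was lost in 9 of 15 alternatives, as was that of AT1G26410 in 4 of 15.

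AT5G38910, a germin-like protein of the cell wall, read 393, 204 and 234 in chl1-12 and 1595, 3337 and 1509 in col. The col arrays varied more than 2-fold among themselves and still lay above all chl1-12 arrays (-2.84 ± 0.48, adjusted p = 0.0063). AT5G35940, a jacalin-related lectin, was at 163 ± 20 against 722 ± 156, a fall of 2.03 on the log2 scale. It was outside the list of these lectins, whose 4 measured genes differed by 0.09 to 0.57 and did not pass. AT1G57630, which holds a TIR domain of the kind found in immune receptors, was at 4.05 ± 0.81 against 69.2 ± 4.2 (-2.09 ± 0.42, adjusted p = 0.019). That call was lost when any 1 array of either group was left out, with adjusted p from 0.053 to 0.073. AT2G38870, a proteinase inhibitor, fell from 4770 ± 495 to 1802 ± 386 (-1.41 ± 0.21, adjusted p = 0.0020). AT4G16260, a glucan-degrading hydrolase, fell from 4716 ± 545 to 2422 ± 68 (-0.95 ± 0.11, adjusted p = 0.00038). AT2G15220, of the basic secretory protein family, fell from 2790 ± 671 to 828 ± 126, on a probe set shared by related transcripts. AT3G47480, a calmodulin-like protein, fell from 141 ± 11 to 33.3 ± 9.6, a call lost without chl1-12 replicate 3 and with a pseudocount of 1. The chitinase AT2G43570 was at 858 against 1807 with an adjusted p of 0.047, and its call was lost when any 1 array of either group was left out.

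Of 12 measured genes known to be induced by nitrate, 4 fell and 1, AT4G32950 above, rose, with a median of -0.11. At an unadjusted limma p under 0.05, 5 were lower and 4 higher, so the list had no clear direction. Over all probe sets, 0.558% fell and 0.941% rose at the adjusted threshold. AT1G49500 read 682, 965 and 931 in chl1-12 and 1654, 2584 and 2997 in col. The groups did not overlap although col varied widely (-1.44 ± 0.22, adjusted p = 0.0025). AT3G25790 and AT1G25550 encode HHO1 and HHO3, GARP repressors of nitrogen starvation genes. The first, whose call was lost without chl1-12 replicate 2 or 3 and without col replicate 1, was at 241 ± 33 against 424 ± 82 (-0.77 ± 0.15) and the second at 540 ± 12 against 821 ± 30 (-0.59 ± 0.10). AT5G62720, a plastid membrane protein known as a nitrite transporter, was at 323 ± 27 against 499 ± 13 (-0.60 ± 0.10). Its homologue AT3G47980, outside the list, was higher at 191 against 115 (0.68 ± 0.15, adjusted p = 0.042). Of the other 7, AT5G41670, a dehydrogenase of the pentose phosphate pathway, was nearest to passing, at 3411 against 2581 (0.40 ± 0.10, adjusted p = 0.081).

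Among 12 measured transporters that the reference identifies with the nitrate and peptide families, 1 fell and the median was 0.00. Of all probe sets, 0.558% fell. AT1G59740, an NPF transporter, read 181, 132 and 152 in chl1-12 and 249, 266 and 305 in col. Its chl1-12 arrays all lay lower, by 0.76 ± 0.14 on the log2 scale (adjusted p = 0.012), a call lost without chl1-12 replicate 2 or col replicate 3. AT2G26690, a nitrate transporter known from leaf petioles, was at 214 ± 48 against 328 ± 16, with an adjusted p of 0.071. NRT2.5, a high-affinity nitrate transporter of starved plants, was at 28.1 against 29.9. Members outside the list were not counted; of those, AT3G53960 and AT3G45710 are named because they passed, AT3G53960 with a fall from 170 to 69.7 (-1.10 ± 0.21) and AT3G45710 with a rise from 1780 to 2637 (0.56 ± 0.12).

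Of 15 measured root hair genes, 3 rose and none fell, and 9 were higher at an unadjusted p under 0.05, with a median of 0.56. Over all 22746 probe sets, 0.941% rose, and 2515 had an unadjusted p under 0.05 in either direction. The median difference of chl1-12 over the 15 was -0.10 from chl1-5, 0.15 from chl1-9, -0.14 from T101A and -0.05 from T101D. None of the 15 was called against any of these lines. AT3G49960, a peroxidase, read 1287, 1452 and 1063 in chl1-12 and 664, 654 and 484 in col. Its groups were well apart (1.06 ± 0.15, adjusted p = 0.0014). AT4G25790, a secreted CAP family protein, was at 469 against 255 and AT5G04960, a pectin methylesterase, at 1469 against 868, with adjusted p of 0.026 and 0.027. Both of these calls were lost without chl1-12 replicate 1, chl1-12 replicate 2 or col replicate 3, with adjusted p from 0.059 to 0.13, so that AT3G49960 alone of the 3 passed then. XTH26, a wall enzyme of root hairs, was at 62.3 ± 25.2 against 15.5 ± 3.7, and its adjusted p of 0.051 missed the threshold. EXPA7 and EXPA18 differed by 0.19 and 0.42 without passing. The summed intensity of the 15 genes ran from 12067 to 13794 in chl1-12 and from 8184 to 10261 in col, with no member at 0. In RNA from whole roots, more hair cells and more RNA per hair cell cannot be told apart.

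Genes of green tissue did not separate the groups. None of 27 measured photosystem and antenna genes passed, and their summed intensity ran from 14398 to 21156 in chl1-12 and from 14677 to 18340 in col. None of 69 measured genes of the plastid genome passed either, with a median of 0.01. Whether other cell types had a part in any result was not tested.

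**Figure D4:**
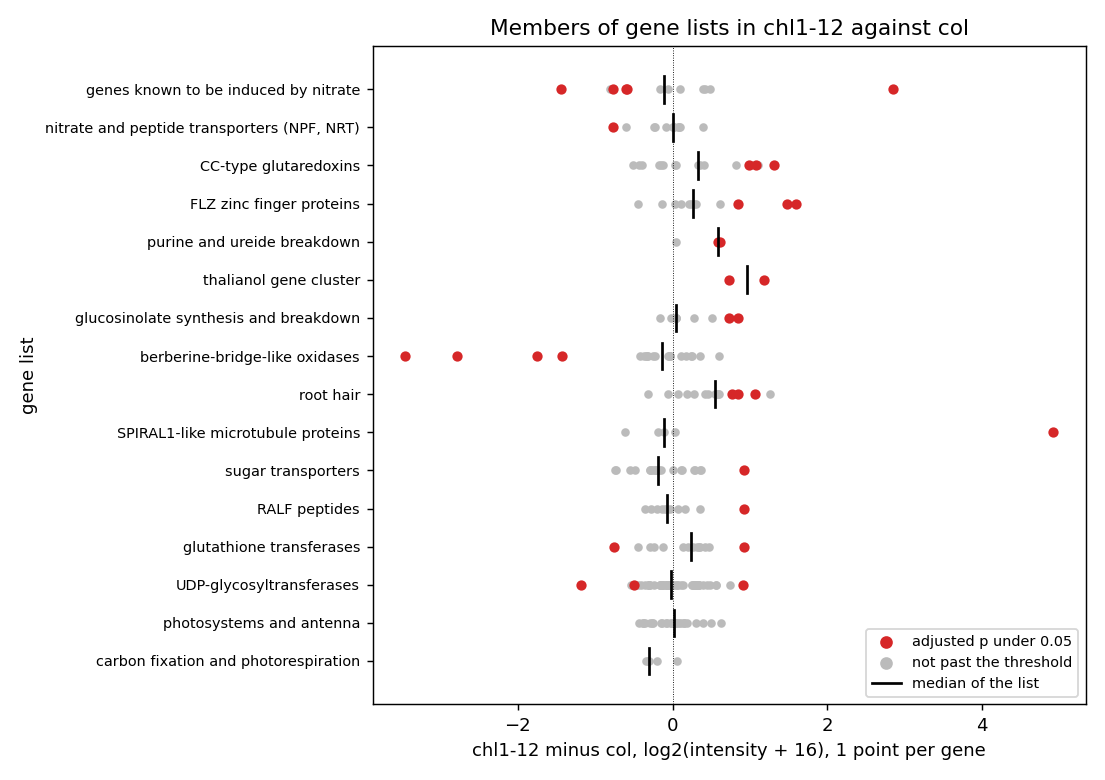
Difference of chl1-12 from col for each measured gene of 16 lists, log2(intensity + 16), with red for an adjusted p under 0.05 and a black bar for the list's median. Root hair genes have a median of 0.56, 4 oxidase genes of the berberine-bridge group fall below -1, and SP1L5 stands alone at 4.92.

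Between chl1-12 and chl1-5, 9 probe sets (0.0396%) passed, all higher in chl1-12, and 938 had an unadjusted p under 0.05. Besides the 4 genes or pseudogenes above and the unnamed 264348_at and 264371_at, these were ATKDSA2, AT3G61610 and AT3G58060. ATKDSA2, an enzyme that makes the pectin sugar KDO, was at 366 ± 10 in chl1-12 and at 50.1, 48.0 and 62.4 on the chl1-5 arrays. The difference was 2.47 ± 0.14, or 5.52-fold (adjusted p = 3.07e-07). AT3G61610, a galactose mutarotase-like protein, was at 184 ± 16 against 48.2 ± 5.8 (1.64 ± 0.15). AT3G58060, a cation efflux family protein, was at 42.9 against 7.76, and its adjusted p of 0.030 was lost in 9 of 15 alternatives, including the removal of any 1 array. Neither ATKDSA2 nor AT3G61610 was called between chl1-12 and col. The 2 genes passed in the same direction against T101A, by 2.61 and 1.44, and against T101D, by 2.55 and 1.55.

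**Figure D5:**
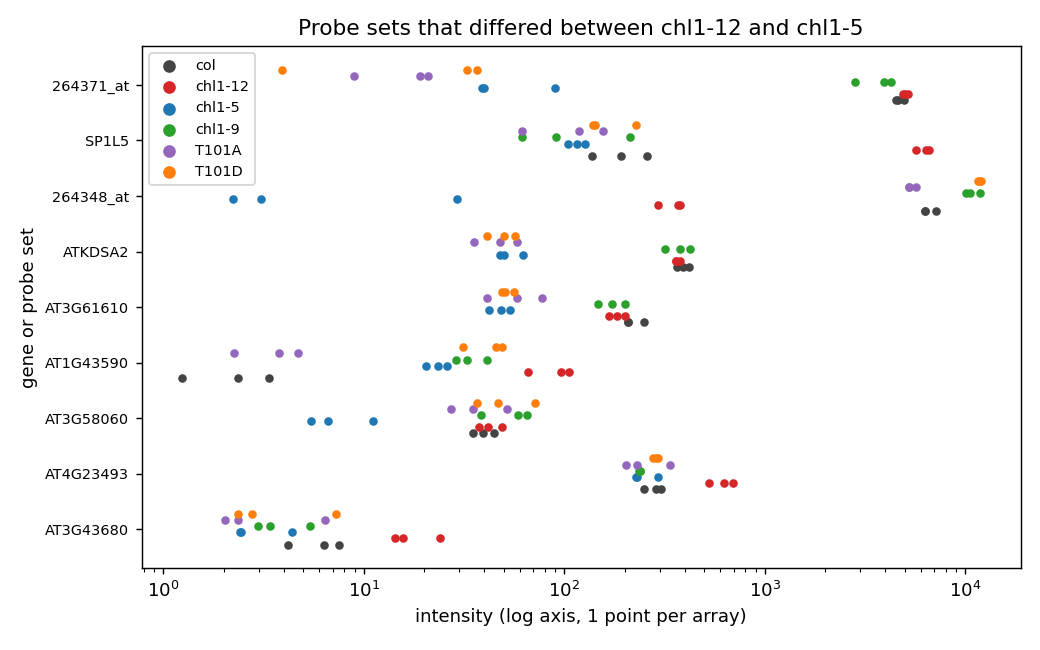
Intensity on a log axis of the 9 probe sets that differed between chl1-12 and chl1-5, 1 point per array for all 6 genotypes. Every chl1-12 array is above every chl1-5 array in each row, and in the SP1L5 row the chl1-12 arrays lie far to the right of all others.

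Between chl1-12 and chl1-9, 40 probe sets (0.176%) passed, 31 higher (0.136%) and 9 lower (0.0396%) in chl1-12. AT3G28550, an extensin-like wall protein, was at 785 ± 67 in chl1-12 and at 14.6, 1.91 and 2.87 in chl1-9 (5.20 ± 0.18). AT5G24240, a lipid kinase-like protein, was at 22.2 ± 1.2 against 563 ± 83 (-3.91 ± 0.30). Against col neither was called. UGT78D1, a flavonol rhamnosyltransferase, was lower by 0.75 ± 0.10, at 470 against 796. AT2G15220, which fell against col, was higher than in chl1-9 by 1.34 (828 against 330), but this call was lost in 8 of 16 alternatives. The count was 14 without chl1-12 replicate 1 and 17 without chl1-12 replicate 3.

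Against T101A 10 probe sets (0.044%) passed, 8 higher (0.0352%) and 2 lower (0.00879%) in chl1-12. Against T101D 42 (0.185%) passed, 18 higher (0.0791%) and 24 lower (0.106%). These counts were not compared with each other by a test. AT4G12500 was at 175 ± 46 in T101D, below chl1-12 by 2.51 ± 0.21 (adjusted p = 2.44e-05), and AT4G32950 at 38.8 ± 8.1, below it by 2.72 ± 0.22. AT1G26380 was at 454 ± 215 in T101D, above chl1-12 by 2.30 on the log2 scale. HHO1 and HHO3 were also higher in T101D, at 490 ± 72 and 864 ± 105. Against T101A the lower probe sets were 264348_at and AT2G05610, at 3.82 in chl1-12 and 32.1 in T101A.

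Of the 214 probe sets higher than col in chl1-12, 4 also differed between chl1-12 and chl1-5, 8 from chl1-9, 4 from T101A and 14 from T101D. The shares of all probe sets that differed were 0.0396% for chl1-5, 0.176% for chl1-9, 0.044% for T101A and 0.185% for T101D. Taking the lines in this order, the median difference of chl1-12 over the 214 was 0.00, 0.06, -0.02 and 0.31. For the 127 lower probe sets the counts were 1, 3, 1 and 20, with medians of -0.08, -0.01, -0.25 and -0.66. These probe sets were chosen on the same chl1-12 arrays, which can raise the counts. Counts and medians are thus a description and were given no test. Examples set side by side, all against the shared col arrays, show the levels behind them. AT4G12500 differed from col by 3.30 in chl1-12, 3.0 in T101A, 3.38 in chl1-5, 3.68 in chl1-9 and 0.79 in T101D, where it did not pass. In the same order AT5G38910 differed by -2.84, -2.52, -3.19, -4.34 and -0.47, the last again not past the threshold.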

How the data were processed

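Total RNA from Arabidopsis roots was extracted with TRIzol and labelled with a 3' IVT Express kit for Affymetrix arrays, per the labels. The authors deposited 1 table of intensity values on a linear scale. Software, background correction and genome build: not given in the sources used here. In each array the mean is 500 once 2% of probe sets is trimmed at each end, so the deposited intensities were scaled to it. Groups and replicate numbers came from sample titles.

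The 64 control probe sets were left out. For the other 22746, log2(value + 16) was fitted with limma 3.58.1 (lmFit, eBayes) in R 4.3.3 on the 18 arrays together, with a coefficient for each genotype. Each contrast was adjusted by the Benjamini-Hochberg method, and every adjusted p comes from limma. The fit was tested on simulated data. Tables and plots used Python 3.11.15, numpy 2.4.6, pandas 2.3.3 and matplotlib 3.10.9.

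Names came from the platform's annotation table, which gave 1 gene for 13513, several for 503 and none for 8730. Of those with 1 gene, 13436 matched the RefSeq gene table of assembly TAIR10.1, used for names, gene order and chromosome only.

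The named genes were, against col, the 15 largest rises and 15 largest falls among called probe sets of 1 gene whose groups did not overlap, 6 each way against chl1-5 and chl1-9, probe sets apart from all genotypes, and called list members. Other genes named, among them AT4G33730, GAMMA-VPE, BAT1, AT2G38870, AT4G16260, AT4G23510, members outside a list and those compared with T101A and T101D, were chosen after their values were seen. The comparison and lists were chosen with earlier results of these data known, and 5 lists (FLZ proteins, CC-type glutaredoxins, purine breakdown, thalianol cluster, plastid genome) after seeing the values. Alternatives were 2 filters on dim probe sets, 2 pseudocounts (1 and 64), quantile normalization, median centring, array weights, an intensity trend, a fit of only the arrays compared, a replicate block and leaving out each array. The number of arrays limits the precision. An exact permutation test of 3 against 3 arrays cannot give a p below 0.1, so none was used.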

Additional observations from a re-analysis of the deposited data

Results flagged for a closer look

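Genes were picked out here because their level in chl1-12 differed from that in every other line by a direct test. SP1L5 was higher in chl1-12 than in T101D, the nearest of the 4 other lines, by 5.09 (log2). AT4G23493, its neighbour, was higher than in T101D by 1.06. AT1G43590, a pseudogene, was higher than in T101D by 0.85. AT3G43680, a dim pseudogene, was higher than in T101D by 0.75. No cause was weighed for any of them.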

How the results depend on the processing

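No gene named by the rule changed sign in an alternative run for it. Genes named outside the rule and the separate T101A and T101D counts were not rerun. Centring arrays on their medians moved the median of all probe sets against col from -0.03 to 0.01. Against col, 341 probe sets passed (214 higher, 127 lower), compared with 95 (43 higher, 52 lower) when only the arrays compared were fitted and 536 with array weights, and leaving out 1 array gave 181 to 292. Against chl1-5 the count of 9 fell to 4 among probe sets above the median level, and leaving out 1 array gave 7 to 9. Against chl1-9 the count of 40 rose to 99 above the median level and 83 with an intensity trend and fell to 12 with only the arrays compared, and leaving out 1 array gave 14 to 49. The 4 probe sets apart from all genotypes became 2 under both filters on dim probe sets, the intensity trend and a pseudocount of 1, and leaving out 1 array gave 2 to 4. Fitting only the arrays compared uses fewer samples; the cause of the other shifts was not tested. Of 65 genes named against col, 17 kept their call in all alternatives run, as did 3 of 6 against chl1-5 and 5 of 12 against chl1-9. With the replicate number as a block 496 probe sets passed against col, 8 against chl1-5, 60 against chl1-9 and 3 apart from all genotypes. Deviations of same-numbered chl1-12 and col arrays correlated at 0.04 to 0.14, and each of the 3 chl1-12 arrays correlated best with the col array of its own number. Same-numbered arrays of chl1-12 and the other lines correlated at 0.02 to 0.14. Arrays of the same number thus shared a small part of their deviations. The main fit had no term for it, because not every pair with col was above 0.1, so that part stayed in the spread. What the replicate number stands for was not tested. Dim probe sets limit what can be seen: 17.6% to 19.5% of a chl1-12 array lay under an intensity of 16.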

Other observations

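The remaining genes of the 15 largest rises and falls against col were these. AT4G37220, of a cold-acclimation protein family, was at 239 ± 50 in chl1-12 and 63.7 in col (1.69 ± 0.22, limma adjusted p = 0.00094). AT5G04120, a phosphoglycerate mutase-like protein, was at 1669 ± 536 against 590 ± 236, and AT5G64550 and AT3G46270 rose by 1.48 and 1.38. AT1G44510, a pseudogene, was at 105 ± 3 against 15.1 ± 14.5, and chl1-12 also exceeded chl1-9 and T101D for it, by 2.18 and 2.25. Its call was lost in 2 of 14 alternatives against col. Against chl1-9 it was lost in 7 of 14, among them leaving out any chl1-12 array. Among the falls, AT3G60420 was at 11.9 ± 10.4 against 168 ± 70 and AT4G39675 at 171 ± 18 against 697 ± 274. AT3G18250, AT1G22890 and AT2G23270 fell by 1.78, 1.74 and 1.62 on the log2 scale, and AT2G29340, a short-chain dehydrogenase, by 1.53. The calls of AT3G60420 and AT2G23270 were lost in 6 alternatives each and those of AT5G04120 and AT4G39675 in 5.

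Of 26 measured genes known to be induced by low oxygen, AT5G66985 rose by 1.01 while AT4G39675 and the dim AT5G26200 fell. These calls were lost in 5 of 16, 5 of 16 and 10 of 14 alternatives. The median of the 26 was 0.06, and of all probe sets 0.941% rose and 0.558% fell. MTP11, a manganese transporter, rose from 1972 to 2955, and XTH20, a xyloglucan enzyme of the wall, from 232 to 367, calls lost in 5 and 6 of 16 alternatives. ATSPS4F, a sucrose phosphate synthase, was at 81.5 against 37.2, a call lost in 9 of 15 alternatives. CCOAMT, a methyltransferase of the caffeoyl-CoA type, fell from 290 to 93.2.

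Replicate 1 was the highest of its group for 113 of the 214 higher probe sets in chl1-12 and for 114 in col, and replicate 3 the lowest for 110 and 120. Over these 214 probe sets, the median log2 distance from the col mean was 0.82, 0.77 and 0.72 in the chl1-12 arrays, a description only, since the probe sets were chosen on these arrays.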
